A study of Mus musculus with 18 samples.

Results

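The interferon response was examined across 43 mouse genes: 4 interferon receptor chains, the transcription factor Stat2 and 38 interferon-stimulated genes. Each gene symbol was matched through RefSeq to an Entrez identifier in the count tables of 18 RNA-seq samples and was kept where it reached 0.5 CPM (counts scaled to a common library size) in at least 3 samples. All 43 passed, of 27179 genes listed and 12798 tested. Ly6a reached 0.5 CPM in 17 samples and Cxcl10 in 12, while the other 41 genes did so in every sample.

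The samples were thymocytes from 3 WT, 3 Hoil ΔCd4 and 3 Sharpin cpdm mice, and CD69+ cells of each mouse were divided into a fraction with low and a fraction with high surface MHC I. CD69 marks thymocytes that have recently been positively selected, and surface MHC I rises as they mature, so the study treats the fractions as successive stages. Other lineages were depleted and gated out during the sort, among them B cells (B220), NK cells (NK1.1), myeloid cells (Gr1 and Mac-1), MHC II+ cells, γδ T cells and cells with CD25 or CD44. HOIL-1, encoded by Rbck1, and SHARPIN are components of LUBAC, the complex that builds linear ubiquitin chains, and the comparisons asked what the loss of either does to the transcriptome after positive selection. In Hoil ΔCd4 mice a Cd4-Cre transgene deletes the loxP-flanked promoter and first exons of Rbck1, so other cells of the thymus retain HOIL-1. Sharpin cpdm is a germline mutation without SHARPIN in any cell type. These mice were examined before extensive skin disease, and derive from C57BL/Ka mice crossed only in part onto C57BL/6, so the mutation and the C57BL/Ka background cannot be told apart. The ages of the RNA-seq mice and the Cre status of the WT mice were not given in the sources used here.

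Type I interferons bind the receptor formed by IFNAR1 and IFNAR2, and interferon-γ binds the receptor formed by IFNGR1 and IFNGR2. Both act through JAK kinases and STAT transcription factors. STAT2 takes part in a complex that binds the interferon-stimulated response element (ISRE) in front of many target genes, whereas interferon-γ signals mainly through a STAT dimer that binds the gamma-activated sequence (GAS). The target genes encode sensors of viral nucleic acid, GTPases that attack intracellular pathogens, the ubiquitin-like protein ISG15 and many other effectors. In the thymus, interferons made by epithelial cells act on thymocytes late in their maturation.

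Stretches of promoter that hold the ISRE core are printed for members described below by a fixed rule, Gbp3, Bst2, Gbp2 and Stat2, and for Isg15 and Ifit1, which were added after their values were seen as familiar targets. They show the sequence that these genes have in common before the response is described. Capitals mark matches to the ISRE core, which is GAAA, any 2 bases and GAAA on either strand, and every sequence is on the gene's own strand, 5′ to 3′, from RefSeq on GRCm38.p6.
Gbp3 (chr3:142559980-142560015, plus strand): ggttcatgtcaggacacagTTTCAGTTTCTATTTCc
Bst2 (chr8:71537562-71537621, minus strand): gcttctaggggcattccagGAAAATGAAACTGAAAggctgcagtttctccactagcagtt
Gbp2 (chr3:142620579-142620638, plus strand): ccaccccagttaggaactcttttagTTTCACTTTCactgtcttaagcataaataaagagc
Stat2 (chr10:128270251-128270310, plus strand): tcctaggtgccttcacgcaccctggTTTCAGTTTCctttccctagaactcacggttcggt
Isg15 (chr4:156200850-156200909, minus strand): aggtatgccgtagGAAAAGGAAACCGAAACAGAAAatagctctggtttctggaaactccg
Ifit1 (chr19:34640779-34640838, plus strand): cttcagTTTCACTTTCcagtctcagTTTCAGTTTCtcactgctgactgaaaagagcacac

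A promoter window, from 250 bases before to 50 bases after the start of the gene, was at hand for 31 of the 43 members. Motifs were searched only in the 250 bases before the start. The ISRE core was present in 11 of these 31 (35.5%), against 3.46% of 27025 genes with a window. The GAS core, TTCNNNGAA on either strand, was present in 7 of 31 (22.6%), against 8.13% of all genes, and the κB motif, bound by the NF-κB factors downstream of LUBAC, in 4 of 31 (12.9%), against 8.23%. Among the 9985 tested genes with a window the shares were 3.16% for the ISRE core, 7.18% for the GAS core and 10.6% for the κB motif. Such matches describe the sequence and do not show that a factor bound there.

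Total counts ranged from 10577966 to 16266128 per sample with a median of 13979793. Rbck1 averaged 222.5 ± 6.08 CPM (SD, n = 3) in WT MHC I low cells and 0.544 ± 0.256 CPM in Hoil ΔCd4 cells, and the means in MHC I high cells were 266.1 and 5.72 CPM. Sharpin RNA was lowered only 1.29-fold and 1.22-fold in Sharpin cpdm cells of the low and high fractions, so a count over the whole gene checks that label only weakly. The 5 markers of CD69+ thymocytes (Cd3e, Cd69, Lck, Cd2 and Thy1) summed to between 2873 and 3436 CPM in each sample, whereas the 8 B cell markers summed to at most 7.01 CPM and the 12 myeloid and dendritic cell markers to at most 14.6 CPM. Xist lay between 3197 and 4471 CPM in all 3 WT mice, in Hoil ΔCd4 mouse 3 and in Sharpin cpdm mouse 2 and at most at 64.6 CPM in the others, so that sex differed between the groups. Mouse 2 of the Hoil ΔCd4 group stood apart in its MHC I high sample, with Xist at 64.6 CPM against 0.606 CPM in the low sample of the same mouse, and with Rbck1 at 8.94 CPM against 3.72 and 4.51 CPM in the other Hoil ΔCd4 high samples. In bulk samples, fewer cells of a type and less RNA per cell cannot be told apart.

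Interferon receptors were readily detected in CD69+ thymocytes. Per length, in CPM per kilobase of exon (RPKM), Ifngr2 was the most abundant chain in WT MHC I low cells at 54.9 ± 2.64 RPKM, followed by Ifnar1 at 34.7 ± 2.22 and Ifngr1 at 34.4 ± 1.72, which differed by less than their SD, and Ifnar2 at 16.1 ± 0.806 RPKM (SD, n = 3). Stat2 lay at 25.9 ± 1.60 RPKM. The stimulated genes covered a much wider range, and in WT MHC I low cells Sp100, a nuclear body protein, averaged 161.2 RPKM, Samhd1, a dNTPase that restricts retroviruses, 121 RPKM and Ly6e, a surface protein of thymocytes, 110.1 RPKM. At the other end Ly6a, which encodes Sca-1, averaged 0.927 RPKM, the GTPase gene Mx1 0.608, the RNA-binding Ifit3 0.605 and the chemokine gene Cxcl10 0.405 RPKM. Thus, abundant and barely detected targets were found in the same bulk samples.

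Most of the interferon programme was higher in the MHC I high than in the MHC I low fraction. The fractions were sorted on MHC I, and the MHC I gene H2-K1 was itself 9.26-fold higher in WT MHC I high cells. Whether the sort also divided cells by their exposure to interferon, apart from stage, was not tested. In each of the 3 genotypes, 41 of the 43 members were higher in MHC I high cells, Samhd1 was lower and Ifngr1 did not pass the test (limma, Benjamini-Hochberg adjusted p under 0.05 over all genes tested). Of all genes, 54.4% were called in WT (27.5% higher and 26.8% lower). The shares were 45.3% for Hoil ΔCd4 (23.5% and 21.7%) and 54.6% for Sharpin cpdm cells (27.2% and 27.4%). The median log2 fold change of the members was 1.06 in WT, where the median of all genes was -0.00423. It was 1.15 for Hoil ΔCd4 cells and 0.985 for Sharpin cpdm cells. The plot of fold changes between fractions shows the members in order.

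**Figure D1:**
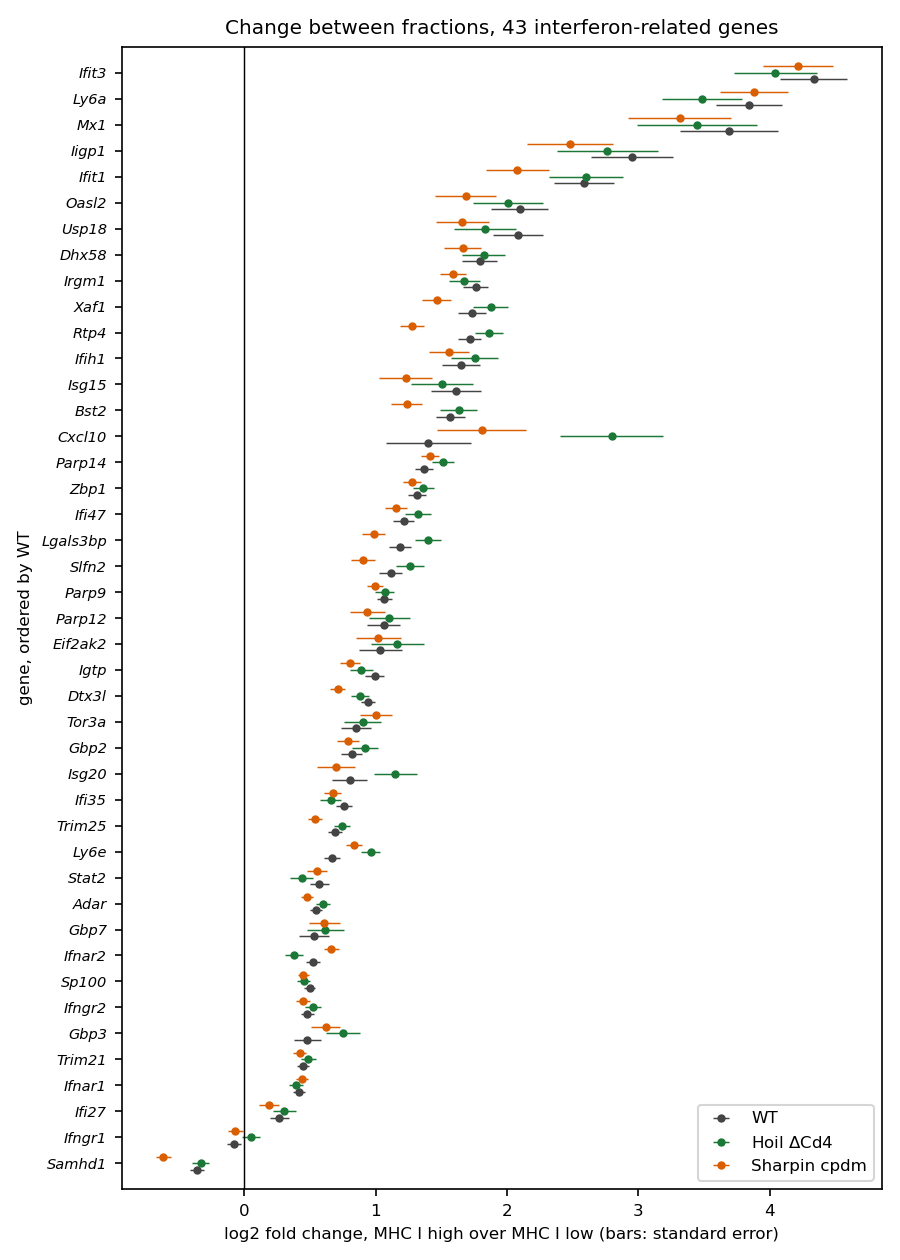
Log2 fold change (horizontal axis) of MHC I high over MHC I low cells for each of the 43 genes (vertical axis, ordered by WT), with points for WT (grey), Hoil ΔCd4 (green) and Sharpin cpdm (orange) and bars for the standard error (n = 3 mice per genotype). Points run from below 0 for Samhd1 to above 4 for Ifit3, and the 3 genotypes lie close together for most genes.

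Among the receptor chains, Ifngr2 measured 112, 109.3 and 119.8 CPM in the MHC I low samples of WT mice 1 to 3 and 159.6, 152.5 and 160.8 CPM in the high samples. Every high sample lay above every low sample, and the change was 1.40-fold (log2 0.48 ± 0.0498 SE, limma adjusted p = 1.17e-09). Ifnar1 measured 258.6, 227.5 and 244.4 CPM in low and 334.5, 300.3 and 331.2 CPM in high samples, without overlap (log2 0.42 ± 0.0455 SE, limma adjusted p = 3.72e-09). Ifnar2 behaved likewise, with 50, 49.6 and 54.2 CPM against 72.7, 72.7 and 74.6 CPM (log2 0.52 ± 0.0544 SE, limma adjusted p = 1.26e-09). By contrast, Ifngr1, the ligand-binding chain of the interferon-γ receptor, measured 70.9, 69.4 and 76.3 CPM in low and 64.5, 71.5 and 69.4 CPM in high samples, and the groups overlapped (log2 -0.08 ± 0.0566 SE, limma adjusted p = 0.25). Stat2 rose from 121.8, 109.8 and 109.6 CPM to 182.5, 156.7 and 167.9 CPM (log2 0.57 ± 0.071 SE, limma adjusted p = 3.69e-07), with no overlap.

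The steepest changes were found among effectors that were nearly silent in MHC I low cells. Ifit3, which binds viral RNA together with other IFIT proteins, went from 1.28, 1.41 and 0.939 CPM in WT low samples to 27.1, 29.4 and 23.3 CPM in high samples, a 20.2-fold rise (log2 4.34 ± 0.256 SE, limma adjusted p = 7.11e-11). Ly6a rose 14.3-fold in WT, from 0.960, 0.640 and 0.704 CPM to 11.5, 12.7 and 12.1 CPM. Mx1 rose 12.9-fold, from 2.43, 1.47 and 1.02 CPM to 25.8, 19.1 and 19.8 CPM. In none of these 3 genes did a high sample overlap with a low one. Usp18, the protease that removes ISG15, rose 4.24-fold in WT and Isg15 itself 3.05-fold. The RNA helicase sensors Ifih1 and Dhx58 rose 3.14-fold and 3.47-fold.

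The 5 members with the smallest p-values for a rise between the WT fractions were Parp9, Dtx3l, Zbp1, Parp14 and Rtp4. Parp9, an ADP-ribosyltransferase that works in a complex with the ubiquitin ligase DTX3L, measured 85.6, 90.3 and 84.7 CPM in WT low and 184.5, 185.2 and 178.4 CPM in WT high samples (2.09-fold, limma adjusted p = 2.25e-16). Dtx3l followed its partner, with 149.3, 139.6 and 136.9 CPM against 283.1, 279 and 266.7 CPM (1.92-fold, limma adjusted p = 1.69e-15). The spans of the 2 genes, introns included, overlap by 558 bases. The strand setting of the counting was not stated, so that reads in any shared exon could be assigned to either. Zbp1, a sensor of Z-form nucleic acid, rose from 100.1, 93.5 and 89.6 CPM to 249.8, 235 and 228.7 CPM in WT (2.49-fold). Parp14 rose from 137.2, 140.9 and 134.3 CPM to 367.2, 366.2 and 345.4 CPM (2.58-fold), and Rtp4 from 27.8, 27.4 and 26.6 CPM to 92.9, 96.4 and 86.6 CPM (3.29-fold). In each of these 5 genes all high samples lay above all low samples.

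Ly6e measured 267.4, 232 and 260.9 CPM in WT low and 396.1, 440.4 and 399.2 CPM in WT high samples (1.59-fold), again without overlap. Samhd1 went the other way, from 508, 464.4 and 483.4 CPM to 388.7, 412.1 and 365.4 CPM, 1.29-fold lower in high cells (limma adjusted p = 1.1e-06). Its decline was 1.26-fold in Hoil ΔCd4 and 1.53-fold in Sharpin cpdm cells, and low and high samples did not overlap in any genotype. The increase of Ifi27 was the weakest, with log2 fold changes of 0.27 (WT), 0.31 (Hoil ΔCd4) and 0.19 (Sharpin cpdm), and WT low and high samples overlapped. This call was lost without Hoil ΔCd4 mouse 3 in Hoil ΔCd4 cells, without WT mouse 1 or 3 in WT cells, and under 8 of 19 alternative settings in Sharpin cpdm cells.

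Members were also compared by their promoters. Among stimulated genes with a window, the 10 with an ISRE core had a median log2 change between fractions of 1.48 in WT (range 0.48 to 4.34), and the 16 without one 0.99 (range -0.36 to 2.1). The ranges overlapped between 0.48 and 2.1, and no test was made. The change between fractions did not pass the test for a difference from WT in any member, in either mutant (0 of 43 called by limma in each, where 0.398% of all genes were called for Hoil ΔCd4 and 3.13% for Sharpin cpdm). At an unadjusted p under 0.05 there were 2 members for Hoil ΔCd4 and 4 for Sharpin cpdm, and the share of all genes at that level was not counted. Both mutants had 0 members called by edgeR and by DESeq2. Over all genes, edgeR called 0.00781% for Hoil ΔCd4 and 0.234% for Sharpin cpdm, and DESeq2 0.156% and 1.05%. Leaving out Hoil ΔCd4 mouse 1, Sharpin cpdm mouse 1 or WT mouse 1 gave 1 call for Sharpin cpdm, and leaving out Hoil ΔCd4 mouse 2 gave 2. Of all genes, 2.88%, 1.95%, 3.88% and 3.38% were called in these fits, in that order. For Rtp4 the rise was 0.44 log2 units smaller in Sharpin cpdm than in WT cells (95% interval -0.701 to -0.184, limma adjusted p = 0.0525), and for Cxcl10 it was 1.39 log2 units larger in Hoil ΔCd4 cells (interval 0.354 to 2.43, limma adjusted p = 0.298), with Cxcl10 resting on 1 to 37 counts per sample.

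Nearly all members lay slightly below WT in Hoil ΔCd4 thymocytes, but few genes passed the test. In MHC I low cells 40 of 43 members lay below WT, with a median log2 fold change of -0.228 against -0.00141 over all genes. Among members, 3 were called lower and none higher (6.98% of members, where 0.985% of all genes were called, 0.563% lower and 0.422% higher). An unadjusted p under 0.05 was found for 23 members, and the share of all genes at that level was not counted. In MHC I high cells 41 of 43 lay below WT, with a median of -0.219 against -0.000266, and 4 members were called lower and 1 higher (11.6% of members, where 6.65% of all genes were called, 2.81% lower and 3.84% higher). Groups did not overlap for 14 members that were lower and 1 that was higher in the low fraction, where 7.62% and 7.07% of all genes were so, and for 10 and 1 in the high fraction, where 9.45% and 10.1% were so. Without Hoil ΔCd4 mouse 2 the median in the high fraction was -0.11, and without mouse 1 the median in the low fraction was -0.378. The plot of the mutants against WT gives every member.

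**Figure D2:**
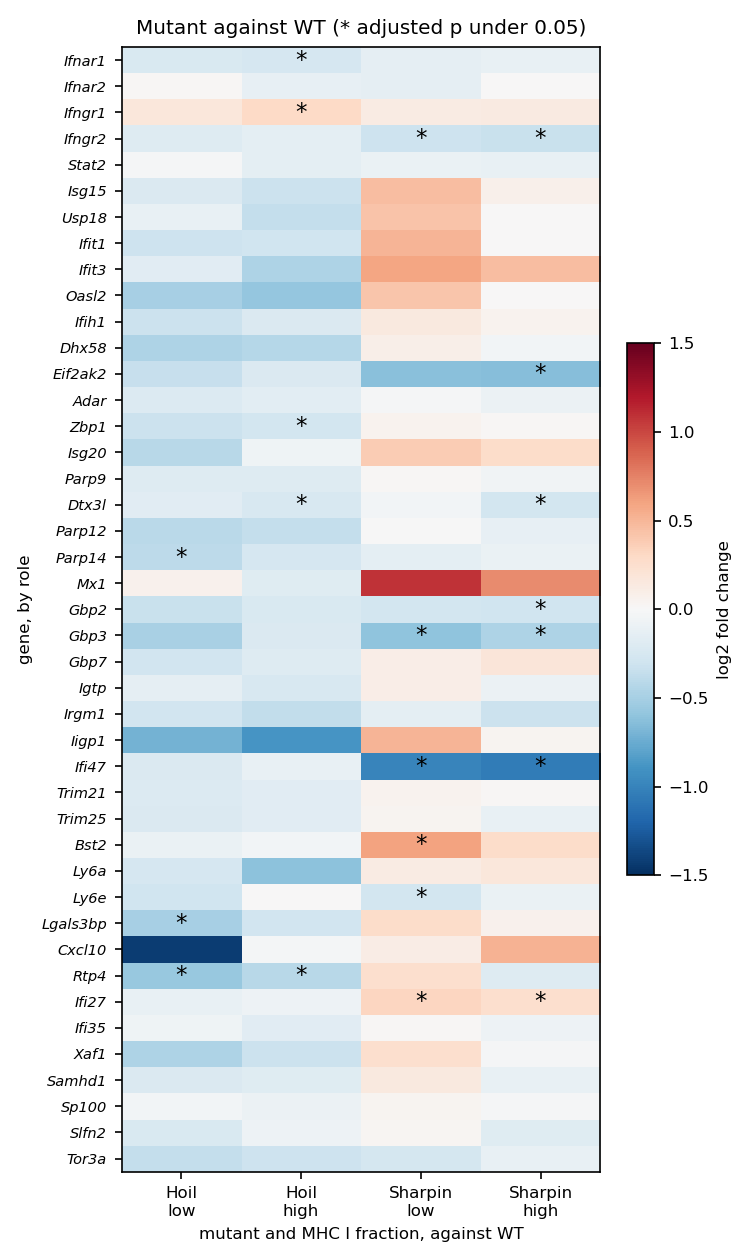
Log2 fold change against WT (colour scale, blue lower and red higher, cut at 1.5 in either direction) of the 43 genes (rows, by role) in the 4 comparisons (columns), where an asterisk marks an adjusted p under 0.05. The Hoil columns are blue in 40 and 41 rows with 3 and 5 asterisks, while the Sharpin columns mix both colours, and Ifi47 is the deepest blue row with an asterisk in both.

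Rtp4, which encodes a chaperone of membrane receptors, was the only member that passed the test in both fractions of Hoil ΔCd4 mice. In the MHC I low fraction Rtp4 measured 21.1, 16.4 and 17.9 CPM in Hoil ΔCd4 mice 1 to 3 against 27.8, 27.4 and 26.6 CPM in WT, 1.48-fold lower (log2 -0.56 ± 0.115 SE, limma adjusted p = 0.012). In the high fraction it measured 79.0, 59.0 and 68.6 CPM against 92.9, 96.4 and 86.6 CPM, 1.33-fold lower (log2 -0.41 ± 0.104 SE, limma adjusted p = 0.016). All Hoil ΔCd4 samples lay below all WT samples in both fractions, with mouse 2 the lowest. Lgals3bp, a secreted glycoprotein, was lower in the low fraction, at 28.7, 19.5 and 26.0 CPM against 36.0, 35.2 and 33.9 CPM (1.42-fold, limma adjusted p = 0.0193). Parp14 was lower there too, at 122.9, 91.4 and 100.4 CPM against the WT values above (1.31-fold, limma adjusted p = 0.0253). Neither group overlapped with WT.

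Both classes of receptor were represented among the members called in MHC I high cells of Hoil ΔCd4 mice. Ifnar1 measured 302.6, 263.7 and 270.1 CPM and was 1.19-fold lower than in WT, although mouse 1 lay within the WT range (log2 -0.25 ± 0.0544 SE, limma adjusted p = 0.00515). Ifngr1 measured 77.7, 80.6 and 93.0 CPM and was 1.23-fold higher, with every sample above WT (log2 0.30 ± 0.0677 SE, limma adjusted p = 0.00656). For Ifnar2 (67.9, 65.8 and 68.5 CPM) the interval of the log2 difference ran from -0.261 to 0.00495, for Ifngr2 (149.5, 142.1 and 140.5 CPM) from -0.27 to -0.0267 and for Stat2 (193.4, 131.2 and 152.1 CPM) from -0.327 to 0.0257, and none of these passed the test. In MHC I low cells no receptor chain passed, where Ifnar1 measured 213.1, 209.8 and 207 CPM (log2 -0.23, limma adjusted p = 0.062) and Ifngr1 76.9, 84.4 and 82.5 CPM (log2 0.17, limma adjusted p = 0.408). The remaining values in Hoil ΔCd4 low cells were 58.4, 47.8 and 49.5 CPM for Ifnar2, 105.1, 107.7 and 89.0 CPM for Ifngr2 and 120.7, 111.4 and 108 CPM for Stat2.

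Zbp1 was 1.21-fold lower in the high fraction, at 243, 170.6 and 188.7 CPM (limma adjusted p = 0.0331), and Dtx3l 1.18-fold lower, at 267.2, 210.2 and 231.8 CPM (limma adjusted p = 0.0254). In both genes Hoil ΔCd4 mouse 1 lay within the range of WT and mouse 2 was the lowest. With Xist as a covariate the calls of Zbp1, Dtx3l and Rtp4 in the high fraction and of Lgals3bp and Parp14 in the low fraction were lost, and edgeR and DESeq2 called neither Zbp1 nor Dtx3l. All of the calls in Hoil ΔCd4 cells depended on the set of mice. Without mouse 2 of this genotype, whose high sample stood apart, no member was called in the low and 1 in the high fraction (0.68% and 1.34% of all genes). Without mouse 3 there were 1 and 0 (0.508% and 2.29%), and without mouse 1 there were 11 and 21 (1.73% and 9.52%). Leaving out WT mouse 1 gave 0 and 0 (0.484% and 1.52%), and leaving out WT mouse 3 gave 1 and 0 (0.695% and 1.05%).

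Values of the mice of 1 genotype spread more in the stimulated genes than in the receptors. The median SD between mice of the same group was 0.18 log2 units over the 38 stimulated genes, 0.0838 over the receptors and Stat2, and 0.126 over all genes tested. This SD includes counting noise, which is larger for genes with few counts. The lowest counts were 9 for Ifit3, 6 for Mx1, 4 for Ly6a and 1 for Cxcl10, whereas the receptors and Stat2 had at least 541 in every sample. The part of counting noise in the spread was not tested. In Hoil ΔCd4 mouse 2 all 38 stimulated genes lay below the WT mean in both fractions, with medians of -0.556 in low and -0.473 in high cells. Mouse 1 lay near WT, with medians of -0.104 and -0.0313, and mouse 3 between them, with -0.262 and -0.225. In Sharpin cpdm mice 1 to 3 the medians were -0.0522, 0.168 and 0.0934 in low cells and -0.219, 0.0493 and -0.0125 in high cells, with 34 of 38 genes of mouse 1 below the WT mean in the high fraction. WT mice lay between -0.0533 and 0.0539 of a mean that includes them. The 3 Hoil ΔCd4 mice were thus ordered alike in both fractions, which come from the same thymus and are not independent.

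**Figure D3:**
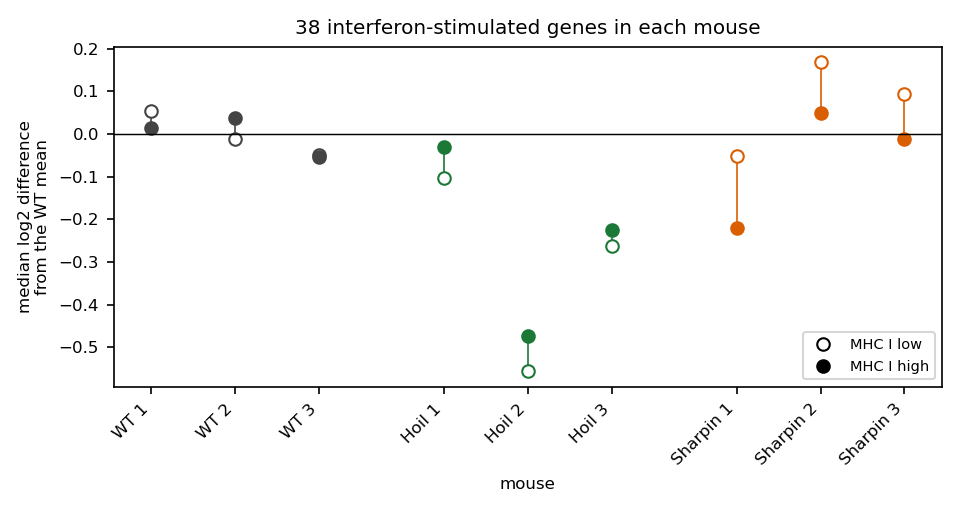
Median log2 difference of 38 interferon-stimulated genes from the WT mean of the same fraction (vertical axis) for each of the 9 mice (horizontal axis), with open circles for MHC I low and filled circles for MHC I high samples. Hoil ΔCd4 mouse 2 is the lowest, at -0.556 and -0.473, and WT mice lie within 0.0539 of 0, where the WT mean includes them.

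Selected after their values were seen, 9 members had a pooled SD between mice of the same group above 0.3 log2 units: Mx1 (0.695), Iigp1 (0.568), Ly6a (0.491), Ifit3 (0.478), Cxcl10 (0.431), Ifit1 (0.4), Oasl2 (0.38), Isg15 (0.341) and Usp18 (0.34). Of these, Mx1, Ly6a, Ifit3 and Cxcl10 are the genes with few counts named above. In MHC I high cells of Hoil ΔCd4 mice, mouse 1 had the highest level in all 9 and mouse 2 the lowest in 8. Iigp1, an immunity-related GTPase, measured 92.2, 24.1 and 50.2 CPM in these samples against 90.0, 77.6 and 80.5 CPM in WT. Its log2 difference of -0.89 did not pass the test (interval -1.7 to -0.0803, limma adjusted p = 0.185). In Sharpin cpdm high cells mouse 2 was the highest in all 9 and mouse 1 the lowest in 8, and in WT low cells mouse 1 was the highest in 8 and mouse 3 the lowest in 8. In WT high cells mouse 2 was the highest in 6, and mouse 1 was the highest in 3 and the lowest in 3.

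Sharpin cpdm thymocytes had no shared direction among the members, and the differences lay in a few genes. In MHC I low cells 28 members were above and 15 below WT, with a median of 0.0534 against 0.00839 over all genes, with 2 members called higher and 4 called lower (14% of members, where 12.2% of all genes were called, 5.31% higher and 6.92% lower). In MHC I high cells 19 were above and 24 below, with a median of -0.0398 against 0.00296, with 1 member called higher and 6 called lower (16.3% of members, where 8.62% of all genes were called, 4.15% higher and 4.47% lower). The split in the high fraction moved to 12 above and 31 below with edgeR and with DESeq2, and to 11 and 32 without sample quality weights or without Sharpin cpdm mouse 2, and without Sharpin cpdm mouse 1 it was 22 above and 21 below. Groups did not overlap for 4 members that were higher and 9 that were lower in the low fraction, where 15.7% and 14.3% of all genes were so, and for 2 and 12 in the high fraction, where 11.5% and 10.8% were so.

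Ifi47, an immunity-related GTPase induced by interferon-γ, had the smallest p of all members in both fractions of Sharpin cpdm mice. It measured 51.3, 63.4 and 56.6 CPM in MHC I low cells of Sharpin cpdm mice 1 to 3 against 117, 118.4 and 109.5 CPM in WT, 1.99-fold lower (log2 -0.99 ± 0.1 SE, limma adjusted p = 2.54e-06). In the high fraction Ifi47 measured 121.6, 141.4 and 114.5 CPM against 264.6, 303.4 and 256.2 CPM, 2.07-fold lower (log2 -1.05 ± 0.0904 SE, limma adjusted p = 3.3e-07). Every Sharpin cpdm sample lay far below every WT sample, and the calls held under all 19 alternative settings, with adjusted p-values of at most 0.000158 and 3.8e-05. Hoil ΔCd4 mice had 103.9, 77.5 and 112.9 CPM in low and 257.3, 231.3 and 253.2 CPM in high cells, both overlapping with WT. Ifi47 nevertheless rose between the fractions of Sharpin cpdm mice, 2.22-fold against 2.32-fold in WT. Within 5 Mb of Ifi47 on chromosome 11, 15 of 72 tested neighbours (20.8%) were also called in the low and 12 of 72 (16.7%) in the high fraction, above the shares over all genes given above, and the part of the C57BL/Ka background in this result was not tested.

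Ifngr2 was the second member that fell in both fractions of Sharpin cpdm mice under every setting. It measured 99.7, 88.2 and 89.5 CPM in the low fraction, 1.24-fold lower than in WT (log2 -0.31 ± 0.0606 SE, limma adjusted p = 0.000947), and 129.8, 124.7 and 123.1 CPM in the high fraction, 1.26-fold lower (log2 -0.34 ± 0.0547 SE, limma adjusted p = 0.000104). No sample overlapped with WT. Neighbours within 5 Mb on chromosome 16 were called in 9 of 51 cases (17.6%) in the low fraction and in 0 of 51 in the high fraction. The adjacent receptor genes Ifnar2 and Ifnar1 did not pass the test, with Ifnar2 at 46.1, 46.6 and 47.8 CPM in low and 72.7, 77.2 and 69.9 CPM in high cells and Ifnar1 at 212.2, 227.3 and 229.6 CPM in low and 300.9, 305.2 and 298.3 CPM in high cells. Ifngr1 measured 78.9, 81.0 and 74.4 CPM in low and 77.2, 78.6 and 67.3 CPM in high cells, and its difference was between -0.0171 and 0.264 and between 0.00623 and 0.26 log2 units. For Stat2, at 102.5, 108.5 and 107.8 CPM and 140.4, 161.2 and 164.9 CPM, the intervals ran from -0.279 to 0.0787 and from -0.278 to 0.0457.

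The guanylate-binding proteins are a family of GTPases that lyse pathogen vacuoles, and the genes of the members Gbp2, Gbp3 and Gbp7 lie on chromosome 3. Gbp3, whose promoter holds overlapping ISRE cores, measured 8.04, 7.75 and 8.11 CPM in Sharpin cpdm low cells against 12.0, 10.7 and 13.5 CPM in WT (1.52-fold lower, log2 -0.60 ± 0.125 SE, limma adjusted p = 0.00151). In high cells it measured 11.8, 12.0 and 13.1 CPM against 16.5, 17.0 and 17.1 CPM (1.38-fold lower, limma adjusted p = 0.00788). Groups did not overlap in either fraction, but the call in high cells was lost under 4 of 19 settings, 3 of them without Sharpin cpdm mouse 2, WT mouse 1 or WT mouse 3. Gbp2 was 1.23-fold lower in high cells, at 93.7, 110 and 95.2 CPM against 118, 129.1 and 127.9 CPM (limma adjusted p = 0.0345), and lost the call under 11 settings, among them without Hoil ΔCd4 mouse 3, without Sharpin cpdm mouse 1 or 3 and without any 1 of the WT mice. Of 39 tested neighbours of Gbp3 within 5 Mb, 4 (10.3%) were called in the low and 3 (7.69%) in the high fraction. Gbp7, which lies beside them, measured 187.9, 243.3 and 263.5 CPM in Sharpin cpdm high cells and 230.1, 191 and 200 CPM in WT and overlapped.

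**Figure D4:**
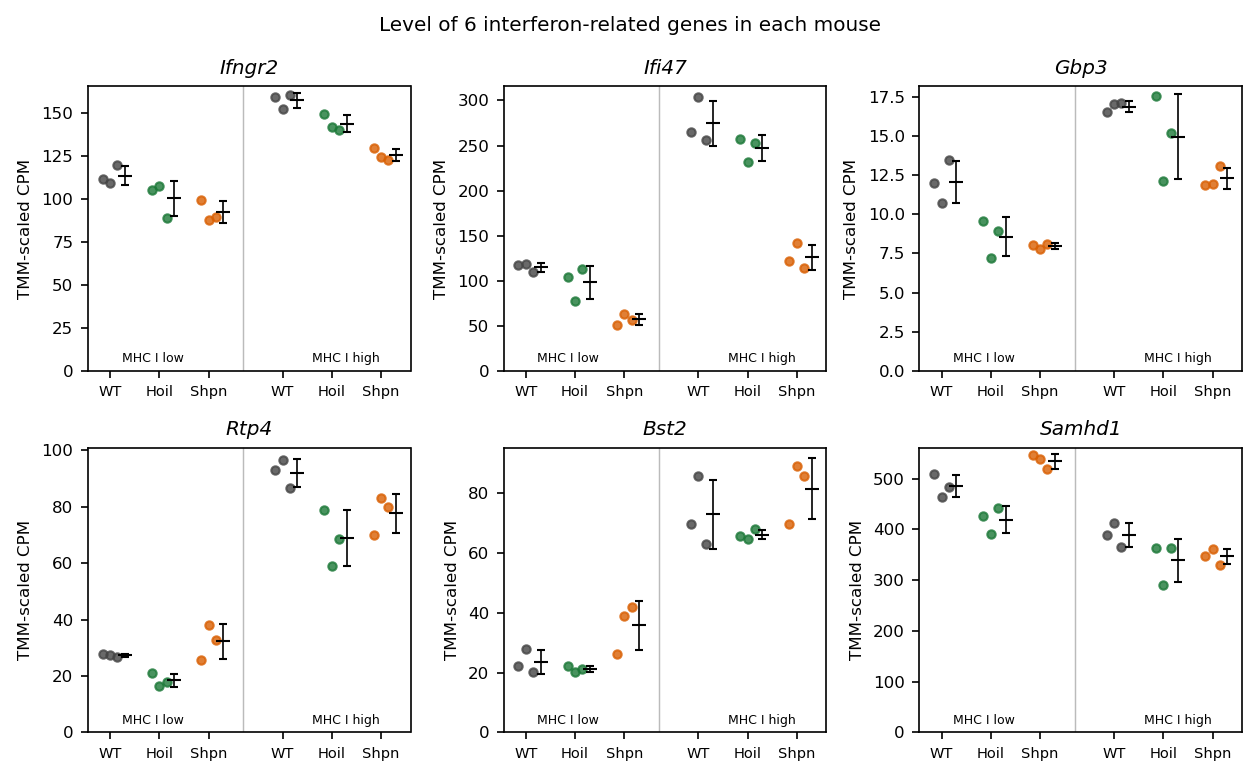
TMM-scaled CPM (vertical axis, from 0) of Ifngr2, Ifi47, Gbp3, Rtp4, Bst2 and Samhd1 in MHC I low (left of the line) and MHC I high (right) cells of WT, Hoil ΔCd4 (Hoil) and Sharpin cpdm (Shpn) mice. Points are the 3 mice and bars the mean ± SD, and Ifi47 in Sharpin cpdm mice, at 51.3 to 63.4 CPM in low and 114.5 to 141.4 CPM in high cells, lies below all WT points.

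Dtx3l was 1.21-fold lower in Sharpin cpdm high cells, at 212.2, 235 and 223 CPM (log2 -0.27 ± 0.0596 SE, limma adjusted p = 0.00295), with every sample below WT and the call present under all 19 settings. Of its 70 tested neighbours within 5 Mb, 8 (11.4%) were called in the low and 4 (5.71%) in the high fraction. Its partner Parp9 measured 158.3, 175.8 and 190.3 CPM in the same samples and overlapped with WT. Eif2ak2, the kinase PKR that shuts down translation on double-stranded RNA, was 1.56-fold lower, at 51.0, 68.4 and 44.8 CPM against 90.9, 77.7 and 90.5 CPM (limma adjusted p = 0.0447). The groups were apart, but the span of the gene, introns included, overlaps by 2041 bases with the pseudogene Gm6548. Over all samples Gm6548 received 87203 counts against 13365 for Eif2ak2, and the overlap of exons was not computed. The call of Eif2ak2 was lost under 12 of 19 settings, among them without Hoil ΔCd4 mouse 2 or 3, without Sharpin cpdm mouse 1 and without any 1 of the WT mice. Ly6e was lower in the low fraction, at 224.3, 202.5 and 206.2 CPM (1.21-fold, limma adjusted p = 0.0111), with no overlap with WT, and lost the call without Sharpin cpdm mouse 2, WT mouse 1 or WT mouse 3 and with Xist as a covariate. Ly6e lies 1.39 Mb from Sharpin on chromosome 15, and of the 148 genes tested within 5 Mb of Sharpin 27 (18.2%) were called in the low and 10 (6.76%) in the high fraction.

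Among the members that were higher in Sharpin cpdm cells, Bst2, the surface protein tetherin that holds back budding virus, measured 26.3, 39.0 and 41.8 CPM in low cells against 22.3, 27.8 and 20.3 CPM in WT (1.53-fold, limma adjusted p = 0.00761). Sharpin cpdm mouse 1 lay below WT mouse 2, and the call was lost without Sharpin cpdm mouse 3 or without WT mouse 1. Ifi27, a mitochondrial protein, was 1.25-fold higher in low cells, at 124.6, 129.8 and 139.7 CPM against 94.9, 127.7 and 97.6 CPM (limma adjusted p = 0.0147), where mouse 1 overlapped with WT. In high cells it was 1.19-fold higher, at 143.1, 142.9 and 165.3 CPM against 133, 124.3 and 121.9 CPM (limma adjusted p = 0.0489), with no overlap. These calls were lost under 5 and 13 of 19 settings, both of them without Sharpin cpdm mouse 2 or 3, without WT mouse 1 or 3 and with Xist as a covariate, and the call in high cells also without any 1 of the Hoil ΔCd4 mice. The span of Ifi27, introns included, overlaps that of its paralog Ifi27l2a by 6057 bases, and the overlap of exons was not computed. Mx1 had a larger difference, 3.45 ± 0.415 CPM against 1.64 ± 0.723 CPM in low cells (SD, n = 3), and its groups did not overlap, but it did not pass the test (log2 1.09 ± 0.451 SE, limma adjusted p = 0.141). Without WT mouse 1, 3 members were called in each fraction of Sharpin cpdm mice (6.57% of all genes in low and 3.88% in high cells). In the high fraction 3 were called without WT mouse 3 (1.86% of all genes) and 4 without Hoil ΔCd4 mouse 3 (8.59%).

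When the mutants were compared with each other, members were mostly lower in Hoil ΔCd4 than in Sharpin cpdm cells. In MHC I low cells 36 of 43 lay below, with a median of -0.259 against -0.0107 over all genes, and 12 were called lower and 1 higher, where 9.48% of all genes were called (4.36% lower and 5.12% higher). Of the members, 34 lay below in the high fraction, with a median of -0.185 against 0.00107, and 4 were called lower and 1 higher, where 6.73% of all genes were called (3.02% lower and 3.71% higher). The median in the high fraction was -0.0597 without Hoil ΔCd4 mouse 2, with 28 members below and 15 above, and -0.119 with DESeq2 and -0.122 with edgeR. In both fractions Ifi47 was the member that was higher in Hoil ΔCd4 cells, by 1.70-fold and 1.92-fold. The genes lower in the low fraction were Adar, Zbp1, Isg20, Trim21, Trim25, Bst2, Lgals3bp, Cxcl10, Rtp4, Ifi27, Xaf1 and Samhd1, and in the high fraction Zbp1, Trim21, Lgals3bp and Ifi27.

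Rtp4 measured 21.1, 16.4 and 17.9 CPM in Hoil ΔCd4 low cells and 25.8, 38.1 and 32.9 CPM in Sharpin cpdm low cells, 1.76-fold lower without overlap (limma adjusted p = 7.1e-05). Lgals3bp was 1.71-fold lower, at 28.7, 19.5 and 26.0 CPM against 38.5, 44.9 and 42.4 CPM (limma adjusted p = 7.02e-05). Samhd1, at 425.8, 390 and 441.4 CPM, was 1.28-fold lower than in Sharpin cpdm mice, at 546.1, 537.6 and 518.1 CPM (limma adjusted p = 0.00213), again with no overlap. These 3 calls and both calls of Ifi47 held under all 19 settings, whereas each of the other calls between the mutants was lost under at least 1. When 1 mouse was left out, 8 to 20 members were called in the low and 1 to 11 in the high fraction. Of all genes, 5.52% to 9.35% and 2.53% to 7.49% were called then. Without Hoil ΔCd4 mouse 1 the members numbered 20 and 11 (5.66% and 7.49% of all genes), and without Hoil ΔCd4 mouse 3 they numbered 8 and 1 (7% and 2.86%). In the high fraction 1 was called without Hoil ΔCd4 mouse 2 (2.53% of all genes) and 9 without Sharpin cpdm mouse 1 (6.6%). There were 2 without Sharpin cpdm mouse 2 (2.93%) and 1 without Sharpin cpdm mouse 3 (3.48%).

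Markers of thymocyte stage moved with these comparisons, and their part in the members' values was not tested. Of 9 genes of double-positive thymocytes, 5 were called higher in Hoil ΔCd4 high cells (median log2 fold change 0.704) and 5 in Sharpin cpdm high cells (0.408), against 0 higher in the low fraction of either mutant (0.221 and -0.12). Their summed level was 1958 to 2151 CPM in WT, 2190 to 2437 CPM in Hoil ΔCd4 and 2196 to 2377 CPM in Sharpin cpdm high cells. Of 8 genes of mature single-positive thymocytes all 8 lay below WT in Hoil ΔCd4 high cells, with 1 called, and their sum was 3815 to 3959 CPM against 4196 to 4365 CPM in WT. The same sum in Sharpin cpdm high cells was 4283 to 4425 CPM. Of 7 regulatory T cell markers, 4 were called lower in each fraction of Hoil ΔCd4 mice (0.563% of all genes in low and 2.81% in high cells). In Sharpin cpdm mice 3 were called lower in the low and 5 in the high fraction (6.92% and 4.47% of all genes). In Hoil ΔCd4 low cells 2 of the 7 lay above WT, and their sum was 1025 to 1152 CPM against 911.3 to 1120 CPM in WT. In high cells the sum was 531.7 to 675.1 CPM against 671.9 to 770.6 CPM. Sharpin cpdm cells had 585.6 to 645.6 CPM in low and 486.4 to 554.9 CPM in high samples, with 1 marker above WT in each fraction.

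The wider pathway was represented by 107 further genes, of which 89 were tested. None of the 11 interferon genes on this list passed the filter on low counts. Between fractions the list resembled the members, with 78 genes higher and 5 lower in WT (93.3%, against 54.4% of all genes). For Hoil ΔCd4 these numbers were 76 and 5 (91%, against 45.3%). Sharpin cpdm cells had 77 and 5 (92.1%, against 54.6%). In Hoil ΔCd4 low cells 70 of 89 lay below WT, and 2 were called lower and none higher (2.25%, against 0.985% of all genes). In the high fraction 76 lay below, and 11 were called lower and 2 higher (14.6%, against 6.65%). In Sharpin cpdm cells 7 were called higher and 5 lower in the low fraction (13.5%, against 12.2%), and 0 higher and 4 lower in the high fraction (4.49%, against 8.62%).

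Cd274, which encodes the checkpoint ligand PD-L1, was lower in both fractions of Hoil ΔCd4 mice, by 1.39-fold in low (limma adjusted p = 0.0013) and 1.33-fold in high cells (limma adjusted p = 0.000886), and by 1.27-fold in Sharpin cpdm low cells. It measured 99.6, 94.6 and 89.8 CPM in Hoil ΔCd4 low cells against 129, 128.2 and 134.7 CPM in WT, with no overlap. Socs1, the feedback inhibitor of JAK kinases, was 1.38-fold higher in Hoil ΔCd4 high cells, at 83.1, 94.3 and 107.1 CPM against 64.7, 79.9 and 68.3 CPM in WT (limma adjusted p = 0.000945). The cytosolic DNA sensor Mb21d1 was 1.44-fold higher there, whereas Trim12c and the endosomal RNA sensor Tlr7 were 1.25-fold and 1.36-fold lower. Gbp9 was 1.38-fold lower in Hoil ΔCd4 low cells. Without Hoil ΔCd4 mouse 2 the calls of Cd274 in high cells, Mb21d1, Trim12c, Tlr7 and Gbp9 were lost, and without WT mouse 3 those of Socs1, Mb21d1, Tlr7 and Gbp9. Those of Socs1, Mb21d1 and Gbp9 were also lost without WT mouse 1, those of Mb21d1 and Gbp9 without Hoil ΔCd4 mouse 3, and that of Mb21d1 without WT mouse 2. With all mice, edgeR lost the calls of Socs1, Mb21d1 and Gbp9, and the mouse number as a replicate block those of Mb21d1 and Gbp9. The call of Mb21d1 was lost under 11 of 19 settings, also with DESeq2, no filter on low counts, no quality weights and Xist as a covariate.

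Tlr7 was also lower in both fractions of Sharpin cpdm mice, by 1.45-fold in low (limma adjusted p = 0.000556) and 1.35-fold in high cells (limma adjusted p = 0.00208). It measured 35.6, 42.0 and 35.7 CPM in Sharpin cpdm high cells and 52.2, 54.8 and 51.9 CPM in WT. Every mutant sample lay below WT. Tgtp2, a T cell GTPase, fell 1.96-fold in low and 2.30-fold in high cells, from 75.6, 75.7 and 75.1 CPM in WT high cells to 27.5, 37.9 and 30.0 CPM. Tgtp1 fell 1.45-fold in high cells, a call that was lost under 8 of 19 settings. Among them were the fits without Sharpin cpdm mouse 1 or any 1 of the WT mice, without quality weights and with Xist as a covariate. Tgtp1 and Tgtp2 are near-identical copies, so the division of reads between them is uncertain. In the opposite direction Oas1a, which activates RNase L on double-stranded RNA, was 2.75-fold higher in Sharpin cpdm low cells, at 5.54, 4.73 and 3.68 CPM against 1.54, 2.81 and 1.17 CPM in WT, with no overlap. Phf11b and Epsti1 were 1.94-fold and 1.33-fold higher in the same cells.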

How the data were processed

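RNA from 18 sorted thymocyte samples (3 mice of each of 3 genotypes, with 2 fractions per mouse) was sequenced from TruSeq libraries. The deposited values are raw counts per gene, which the authors made by aligning reads to mm10 with the subread aligner and counting them with featureCounts and its inbuilt annotation. Versions, the strand setting and the treatment of multi-mapping reads were not given in the sources used here, so genes with close paralogs (such as the Ifit, Gbp and Ifi27 families) or overlapping neighbours are less certain. The per-sample tables were used, and the joint table of the same counts was not.

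The filter retained 12798 of 27179 genes, namely those that reached 0.5 CPM in 3 or more samples, after removal of predicted genes, genes lacking an official symbol, Xist and genes of chromosome Y. Counts were scaled by TMM (factors 0.9873 to 1.015), and CPM values are on that scale. Differences were tested after the study's methods with limma 3.58.1 in R 4.3.3 on log2 CPM (prior count 1), with 6 groups, sample quality weights (0.6282 to 2.423), mouse as a random block (correlation 0.224) and a robust empirical Bayes trend. Genes with a Benjamini-Hochberg adjusted p under 0.05 over all genes tested were called, and intervals are 95% t intervals of the fit. Fold changes understate those of genes with few counts because of the prior count. The quasi-likelihood test of edgeR 4.0.16 and DESeq2 1.42.0 were among the alternatives. The fits were tested on simulated data.

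Replicates are separate mice, and no pair of samples agreed within counting noise. The numbers pair the fractions because both came from 1 mouse, and deviations from the group means correlated between the fractions of each mouse with r of 0.0702 to 0.256. Mouse numbers of different genotypes share nothing in the labels.

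The members, the wider pathway list and the marker lists were chosen with earlier results of these data known, so no list gives independent support. Values per mouse are given for the receptors and Stat2, for up to 5 members called in each direction with the smallest p in each comparison with WT and between fractions, and for others as ranges, counts or added examples (the latter, such as Ifit3, Mx1 and Iigp1, chosen after their values were seen). Of the pathway list, up to 3 called genes in each direction are named. Over all samples, the summed levels of further marker lists were 662.1 to 1686 CPM for plasmacytoid dendritic cells (a list that includes the thymocyte genes Ccr9 and Ly6d), 10.2 to 29.8 CPM for NK cells, 19.5 to 75.8 CPM for thymic epithelial cells and 486.4 to 1152 CPM for regulatory T cells. Promoter windows were matched to members by RefSeq gene identifier, for both strands, with overlapping matches allowed.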

Additional observations from a re-analysis of the deposited data

How the results depend on the processing

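Under 19 settings (10 alternatives of the fit and 9 with 1 mouse left out), 143 of the 181 gene results followed kept their call and none reversed. Most of the results followed were changes between fractions, where only the calls of Ifi27 were lost, and the counts stayed within 1.5 times of 42. Every member call in Hoil ΔCd4 against WT cells was lost under at least 1 setting. Of the member calls in Sharpin cpdm against WT cells, those of Ifi47, Ifngr2, Dtx3l in high and Gbp3 in low cells were kept throughout. Shares of all genes called in the same fit are given in brackets. Members called in Hoil ΔCd4 low cells (3) numbered 5 with DESeq2 (1.55%), 1 with edgeR (0.977%), 1 with no filter on low counts (0.498%) and 1 with the mouse number as a replicate block (1.27%). In Hoil ΔCd4 high cells (5) they numbered 9 with at least 10 counts in every sample, 3 with DESeq2, 2 with edgeR, 3 with no filter, 2 without quality weights, 3 with the replicate block and 3 with Xist as a covariate. In Sharpin cpdm high cells (7) they numbered 4 with edgeR (4.07%), 3 without quality weights (3.37%) and 4 with the replicate block (6.42%). Between Hoil ΔCd4 and Sharpin cpdm high cells (5) they numbered 3 with DESeq2 (4.73%), 3 with edgeR (4.05%), 3 with no filter (3.74%) and 2 without quality weights (4.03%). For the change between fractions in Sharpin cpdm against WT (0), 1 was called with at least 10 counts (4.6%) and 1 with a prior count of 3 (3.45%). Leaving out 1 mouse gave 0 to 11 in Hoil ΔCd4 low (0.484% to 1.73%) and 0 to 21 in Hoil ΔCd4 high cells (1.05% to 9.52%). It gave 3 to 9 in Sharpin cpdm low (6.39% to 12.2%) and 3 to 7 in Sharpin cpdm high cells (1.86% to 8.92%). Between the mutants it gave 8 to 20 in low (5.52% to 9.35%) and 1 to 11 in high cells (2.53% to 7.49%). For the change in Sharpin cpdm it gave 0 to 2 (0.813% to 3.88%). Without a replicate block for mouse, the calls of Parp14 in Hoil ΔCd4 low cells (limma adjusted p = 0.074), Zbp1 in Hoil ΔCd4 high cells (0.0644), Eif2ak2 in Sharpin cpdm high cells (0.0668) and Ifi27 between the Sharpin cpdm fractions (0.0634) were lost, and no other call followed changed. The cause of these moves was not tested.

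Counts over all genes also moved. In Hoil ΔCd4 high cells 851 genes were called, against 404 with edgeR, 484 with DESeq2, 314 without quality weights and 453 with no filter. In Sharpin cpdm high cells 1103 were called, against 521, 601, 431 and 694. In Hoil ΔCd4 low cells 126 were called, against 198 with DESeq2 and 209 with Xist as a covariate. Leaving out 1 mouse gave 134 to 1219 in Hoil ΔCd4 high cells, the lowest when WT mouse 3 and the highest when Hoil ΔCd4 mouse 1 was omitted, with 171 when Hoil ΔCd4 mouse 2 and 195 when WT mouse 1 was omitted. It gave 238 (WT mouse 3 omitted) to 1142 in Sharpin cpdm high cells. It gave 62 to 222 in Hoil ΔCd4 low cells and 818 to 1555 (of 1565) in Sharpin cpdm low cells. Between the mutants 1213 genes were called in low and 861 in high cells, against 707 to 1197 and 324 to 958 without 1 mouse. For the change between fractions 51 genes were called for Hoil ΔCd4 and 400 for Sharpin cpdm, against 1 and 30 with edgeR, 20 and 134 with DESeq2, and 0 to 42 and 104 to 496 without 1 mouse. Depth limits the precision of Cxcl10, with 1 to 37 counts per sample.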
